A study of Homo sapiens with 12 samples.

Results

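The genes described here are 10 that encode histone variants outside the histone clusters or their handling proteins, taken by name from a fixed list. They were H2AFX, H2AFZ, H2AFV and H2AFY (H2A variants), H3F3A and H3F3B (H3.3), H1F0 and H1FX (linker histones), and ATRX and DAXX, and they are 10 of the 25365 names in the table. RNA-seq was made from A549 cells, a human lung adenocarcinoma line, that were wild type (WT) or PARP3-/- and had received vehicle or 1 µM pyridostatin, a small molecule that stabilizes G4 DNA, for 24 h. Each of the 4 groups (WT vehicle, WT pyridostatin, PARP3-/- vehicle, PARP3-/- pyridostatin) had 3 libraries. The PARP3-/- cells carried a deletion made with Cas9 and a pair of guides in the first exon and were grown out from single cells, and the clone or clones sequenced are not given in the sources used here.

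Values are FPKM, which scale fragment numbers by transcript length and by the mapped reads of a library, so levels of different genes can be compared per length. A gene was called when its adjusted p was under 0.05 in limma fitted to log2(FPKM + 1) over the 11881 names with a mean of at least 1 FPKM. Fold changes are on this scale and understate changes of low genes. Of the 10 genes, 8 passed this minimum and were tested, and H3F3A and DAXX did not. The paper describes the RNA-seq as done in biological triplicate. Whether the replicates of a genotype came from 1 or several clones is not given. The p-values therefore measure only the spread between these libraries.

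Core histones made in S phase come from clustered genes without poly(A) tails. The variant genes lie outside the clusters, and most give polyadenylated transcripts all through the cell cycle. Any part of a variant's RNA without a tail is not measured in poly(A) libraries. H2AX is the variant that is phosphorylated around DNA breaks, H2A.Z (from H2AFZ and H2AFV) sits beside transcription start sites, and macroH2A (H2AFY) carries a large extra domain and is enriched in silent chromatin. H3.3 replaces H3 outside replication, placed by HIRA in active genes and by ATRX with DAXX at telomeres and repeats, and ATRX is known to bind G4-forming repeats. H1.0 (H1F0) and H1X (H1FX) are linker histones that bind DNA between nucleosomes.

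H3.3 and H2A.Z are each encoded by a pair of genes whose coding DNA differs while the protein is nearly or fully the same, and the first 60 coding bases show how far reads of each pair can be told apart. In the lines below, capitals mark bases that differ from the first gene of each set (GENCODE release 29, GRCh38). The H3.3 genes lie at chr1:226064352-226064411 on the plus strand (H3F3A), chr2:174719908-174719967 on the plus strand (H3F3AP4, annotated as a processed pseudogene of H3F3A) and chr17:75779115-75779174 on the minus strand (H3F3B).
H3F3A: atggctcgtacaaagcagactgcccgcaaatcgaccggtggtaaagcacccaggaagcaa
H3F3AP4: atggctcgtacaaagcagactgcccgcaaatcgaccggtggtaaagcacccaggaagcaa
H3F3B: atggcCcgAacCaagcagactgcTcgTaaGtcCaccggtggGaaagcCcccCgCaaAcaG
The H2A.Z genes are on the minus strands of chr4:99949684-99950170 (H2AFZ) and chr7:44843298-44847971 (H2AFV), and these spans include an intron.
H2AFZ: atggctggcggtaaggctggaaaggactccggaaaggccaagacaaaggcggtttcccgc
H2AFV: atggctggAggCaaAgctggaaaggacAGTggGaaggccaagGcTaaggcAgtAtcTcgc
Over all 408 coding bases H3F3A and H3F3B differed at 88, and each of the 79 codons that differed was synonymous. H3F3A and H3F3AP4 were identical at all 408. H2AFZ and H2AFV differed at 75 of 384 bases, with 63 synonymous and 3 other codons among the 66 that differed.

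The 8 tested genes spanned a wide range of levels. H2AFZ was the highest, at a mean of 380.0 ± 39.2 FPKM (SD, n = 12) over all libraries, above 98.3% of the names tested. H3F3B followed at 177 ± 9.02 FPKM and H2AFY at 122 ± 4.80 FPKM (SD, n = 12 each), and the libraries of these 3 genes did not overlap. H2AFV (80.6 ± 3.52 FPKM), H2AFX (79.3 ± 9.53 FPKM), H1FX (78.5 ± 8.54 FPKM) and H1F0 (70.6 ± 5.88 FPKM) overlapped one another in range (SD, n = 12 each). Within libraries H2AFV was above H1F0 in all 12, and the other pairs among these 4 changed order in at least 1 library. ATRX was far lower, at 7.57 ± 1.08 FPKM (SD, n = 12), near the 40th percentile of the names tested (39.8%).

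**Figure D1:**
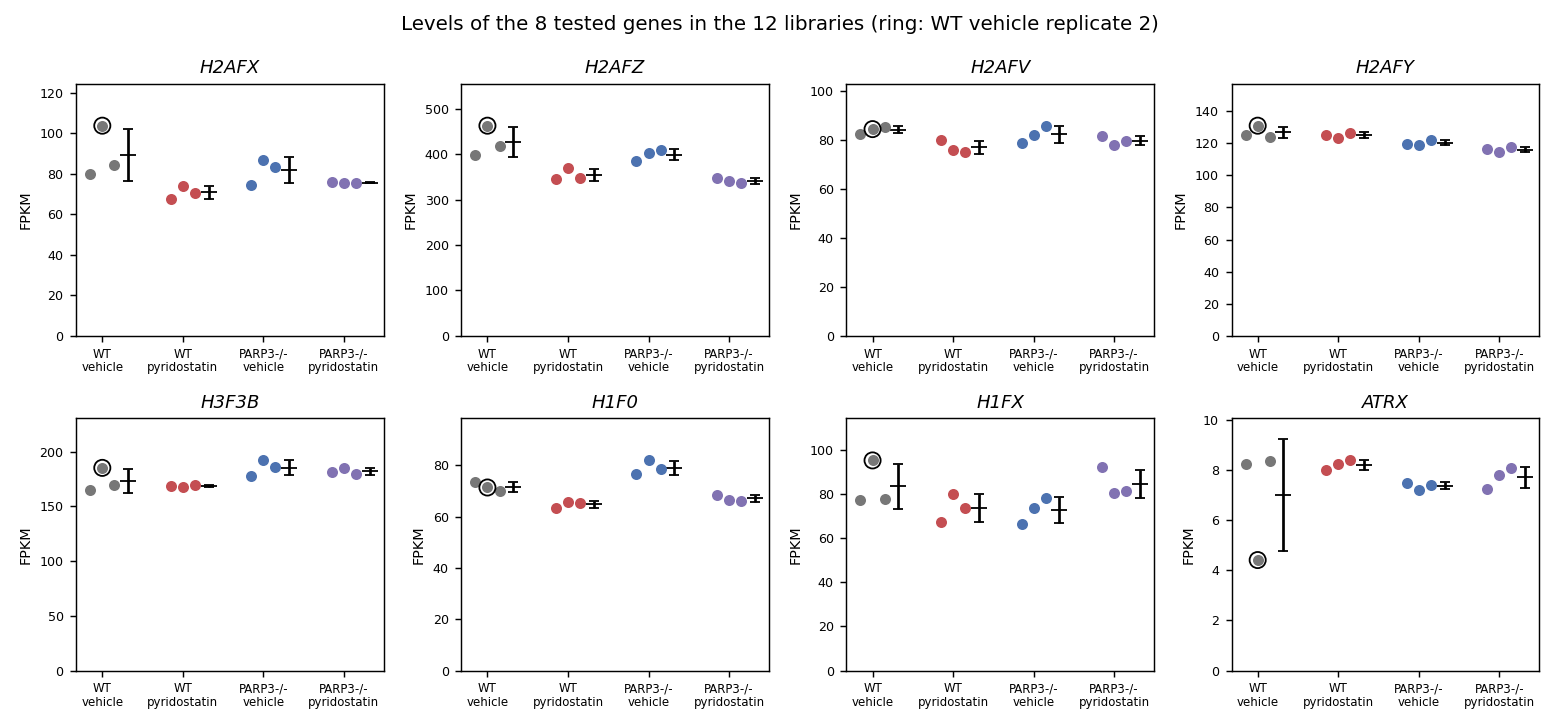
Levels (FPKM, linear axes from 0) of the 8 tested genes, with 1 point per library and the mean ± SD of the 3 libraries beside each of the 4 groups. The ringed point is WT vehicle replicate 2, which is the highest of the 12 libraries for H2AFX, at 104 FPKM, and the lowest for ATRX, at 4.41 FPKM.

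One library stood apart. In WT vehicle replicate 2, transcripts under 1000 bases were higher than in the other 2 libraries of its group by a median of 0.25 on the log2 scale (796 genes) and those over 8000 bases were lower, at a median of -0.27 (746 genes), while no other library went past 0.15 in either class. ATRX, with a transcript of 11167 bases, was at -0.78 in that library. The results that this library touches are therefore also given without it, and the part of transcript length in them was not tested. The PARP3 transcript was not lower in the libraries labelled PARP3-/-, at 4.41 ± 0.447 FPKM (SD, n = 3) with vehicle against 3.73 ± 0.293 FPKM in WT (SD, n = 3). Each value covers the whole gene and does not show the stretch deleted in the first exon. The paper gives a sequencing trace of the deletion and PARP3 immunoblots of PARP3-/- A549 cells with PARP3 re-expressed. Directions between genotypes here follow the labels. Keratins KRT8 and KRT18 were at 2766 to 3375 and 2207 to 3314 FPKM, EPCAM was at only 0.879 to 2.36 FPKM, and CD3E of T lymphocytes was listed at 0. Estimated depths ran from 21500000 to 30900000 reads.

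**Figure D2:**
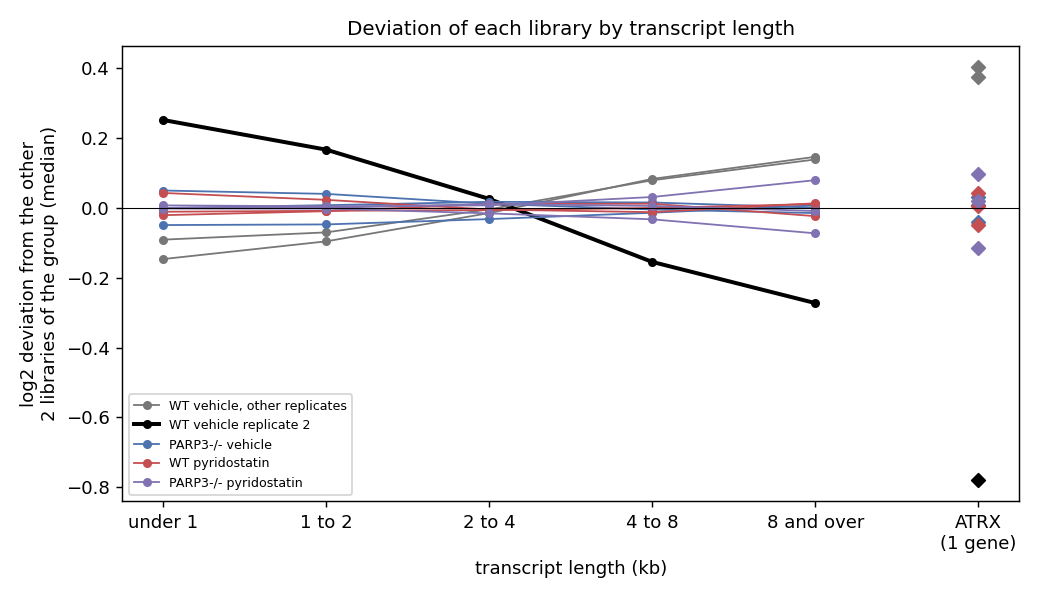
Median deviation (log2 of FPKM + 1) of each library from the other 2 libraries of its group, by class of transcript length in kb, with ATRX alone at the right (diamonds). The black line, WT vehicle replicate 2, falls from 0.25 in the shortest class to -0.27 in the longest, and its ATRX value is -0.78.

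The first question was whether the RNA of the H2A variants changed with pyridostatin. H2AFZ fell with pyridostatin in both genotypes, by 16.8% in WT (13.2% without WT vehicle replicate 2) and 14.4% in PARP3-/- cells. H2AFX was lower over both genotypes together, while H2AFY moved little. H2AFV, the second H2A.Z gene, was lower in WT libraries but was not called.

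H2AFZ was at 397, 462 and 419 FPKM in WT vehicle and at 346, 369 and 347 FPKM in WT pyridostatin. With PARP3-/- labels it was at 386, 402 and 408 FPKM with vehicle and at 348, 340 and 336 FPKM with pyridostatin. Within each genotype every pyridostatin library lay under every vehicle library. The log2 fold change was -0.26 in WT (standard error 0.0549, adjusted p = 0.0251 from limma) and -0.22 in PARP3-/- cells (adjusted p = 0.0418 from limma). Averaged over both genotypes it was -0.24 (standard error 0.0389, adjusted p = 0.00264 from limma), and -0.21 without WT vehicle replicate 2. The averaged call held in all 20 alternatives, whereas the calls within WT and within PARP3-/- cells were lost in 5 and 11 of 21, with adjusted p up to 0.211 and 0.153 (limma). Both were lost without WT vehicle replicate 3 or WT pyridostatin replicate 1 or 3, and the call within PARP3-/- cells also without any 1 of the 6 PARP3-/- libraries.

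H2AFV was at 82.5, 84.3 and 85.3 FPKM in WT vehicle and at 79.8, 75.7 and 75.0 FPKM in WT pyridostatin, again with no overlap. The PARP3-/- groups overlapped, at 78.7, 82.0 and 85.7 FPKM against 81.3, 77.7 and 79.6 FPKM. The averaged log2 fold change was -0.09 (95% interval -0.15 to -0.02, adjusted p = 0.0676 from limma). Within a library, the ratio of H2AFZ to H2AFV (levels per length) was 4.82 to 5.49 with vehicle and 4.33 to 4.87 with pyridostatin in WT, which overlap. It was 4.77 to 4.90 with vehicle and 4.22 to 4.37 with pyridostatin in PARP3-/- cells, which do not overlap, and the ratio was not tested. Of the stretches of 75 bases in the H2AFV transcript 11.65% also occur in H2AFVP1, and of those in H2AFZ 1.88% occur in H2AFZP3. Whether reads were assigned to these 2 names was not tested.

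H2AFX was at 79.7, 104 and 84.3 FPKM in WT vehicle and at 67.5, 74.1 and 70.6 FPKM in WT pyridostatin. All 3 treated libraries were lower, and the highest vehicle value was that of replicate 2. The PARP3-/- libraries were at 74.5, 86.9 and 83.5 FPKM with vehicle and at 76.1, 75.5 and 75.3 FPKM with pyridostatin, and these overlap. The log2 fold change was -0.32 in WT (standard error 0.0881, adjusted p = 0.0721 from limma) and -0.21 over both genotypes (standard error 0.0623, adjusted p = 0.0452 from limma). Without WT vehicle replicate 2 these were -0.21 (adjusted p = 0.0812 from limma) and -0.16 (adjusted p = 0.0268 from limma). The averaged call was lost in 11 of 20 alternatives, among them the removal of any 1 library other than WT vehicle replicates 1 and 2 and PARP3-/- vehicle replicate 1 (adjusted p from 0.00152 to 0.123, limma).

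H2AFY was at 125, 131 and 124 FPKM in WT vehicle and at 125, 123 and 127 FPKM in WT pyridostatin. It was lower in the libraries labelled PARP3-/-, at 119 to 122 FPKM with vehicle and at 114 to 118 FPKM with pyridostatin, with no overlap between genotypes under either treatment. The averaged genotype log2 fold change was -0.09 (standard error 0.0225, adjusted p = 0.0164 from limma), 6.1% lower on the linear scale, and this call held in all 20 alternatives. H2AFY2, which encodes the second macroH2A and is no member of the set, was higher in the same libraries by 0.16 on the log2 scale (adjusted p = 0.00531 from limma). The ratio of H2AFY to H2AFY2 was 7.51 to 7.98 in WT libraries and 6.03 to 6.92 in those labelled PARP3-/-, which do not overlap.

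**Figure D3:**
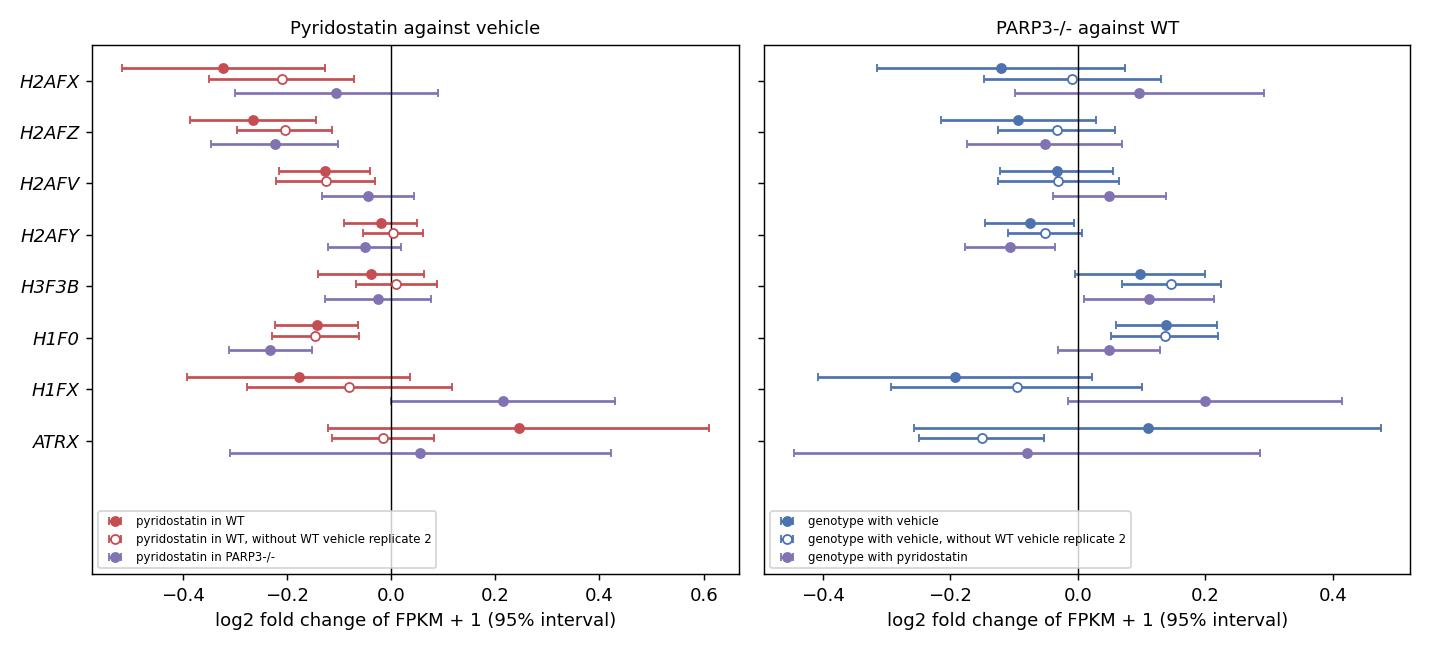
Log2 fold changes of FPKM + 1 with 95% intervals for the 8 tested genes, with pyridostatin against vehicle at the left and PARP3-/- against WT at the right. Open points are the fits without WT vehicle replicate 2. H2AFZ and H1F0 lie under 0 with pyridostatin in both genotypes (H2AFZ -0.26 and -0.22, H1F0 -0.14 and -0.23), and ATRX between genotypes with vehicle moves from 0.11 to -0.15 when that library is left out.

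Promoters were searched for the letters of a potential G-quadruplex, 4 runs of GGG with 1 to 7 bases between them, on both strands and in 300 bases around each start (250 before, 50 after) from RefSeq on GRCh38.p14. Promoters of 7 of the 10 genes were found by symbol, and those of H1F0, ATRX and DAXX were not used here. The motif was present in H2AFZ, in 1 of 2 promoters of H2AFY and in 3 of 4 of H3F3A, and in none of H2AFX, H2AFV, H3F3B and H1FX, that is, in 3 of 7 genes, whereas 27.8% of all 27305 genes have a promoter that holds it (24.9% of all 35116 promoters). The H2AFZ promoter is shown since H2AFZ is the H2A variant whose fall with the G4 ligand was called in both genotypes.
H2AFZ promoter, chr4:99950226-99950525, minus strand: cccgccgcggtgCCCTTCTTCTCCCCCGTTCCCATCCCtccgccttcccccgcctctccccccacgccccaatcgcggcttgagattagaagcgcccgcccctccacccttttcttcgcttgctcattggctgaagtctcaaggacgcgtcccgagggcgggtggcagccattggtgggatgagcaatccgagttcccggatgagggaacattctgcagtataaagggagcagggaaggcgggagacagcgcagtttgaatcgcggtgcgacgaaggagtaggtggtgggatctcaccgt
The capitals mark the match, 26 bases from -238 to -213 of the start, with its G runs on the opposite strand. A match is a description of letters and not of a folded structure. With pyridostatin over both genotypes, H2AFZ was called lower with a match and H2AFX without one. H2AFY, with a match, and H2AFV, H3F3B and H1FX, without one, were not called. H1F0 was called lower and its promoter was not searched. Whether a match goes with the response was not tested.

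The H3.3 genes were recorded unevenly. H3F3A was listed near 0, at 0.00233 to 0.00652 FPKM in 11 libraries and at 5.64 FPKM in PARP3-/- vehicle replicate 1, so it was not tested and no change of it is given. H3F3AP4, singled out after its values were seen, was at 186 to 241 FPKM in all 12 libraries. Of the 1234 windows of 75 bases (the read length) in the H3F3A transcript, 27.3% occur unchanged in other annotated genes, H3F3AP4 among them. The annotated H3F3AP4 has only 411 bases, against 1308 in the H3F3A transcript, which limits the windows that it can share. None of the 20 nearest protein-coding neighbours of H3F3A was listed at 0. Whether reads of H3F3A were assigned to H3F3AP4 was not tested, and the values of these 2 names cannot be read as levels of 2 separate genes.

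**Figure D4:**
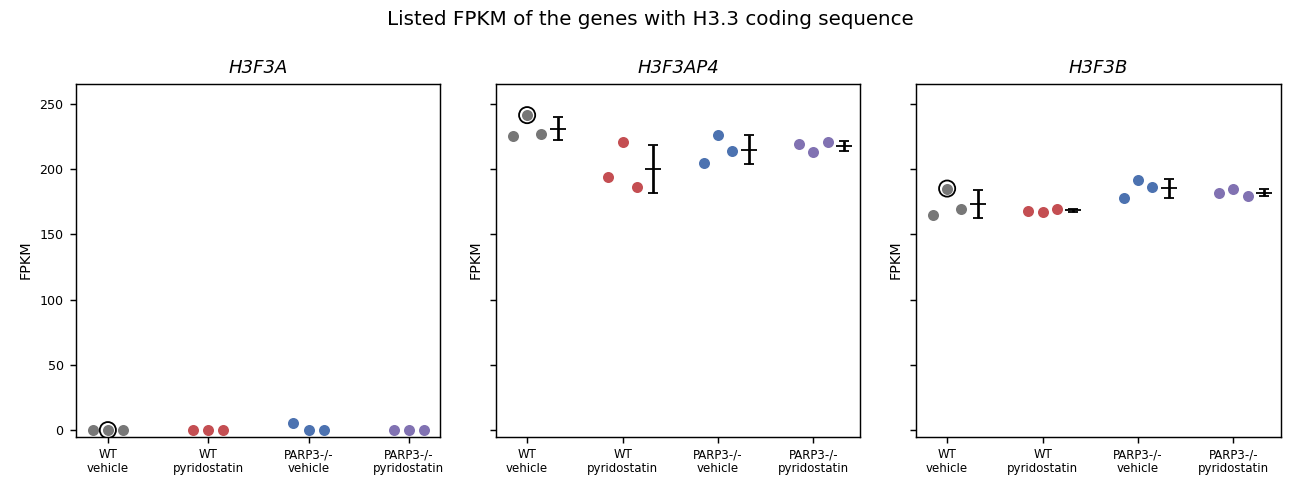
Listed levels (FPKM, 1 shared linear axis) of H3F3A, its coding-identical copy H3F3AP4 and H3F3B in the 12 libraries, with the mean ± SD of each group of 3 for the last pair. H3F3A lies at or near 0 in all libraries but 1 (5.64 FPKM), while H3F3AP4 lies between 186 and 241 FPKM and H3F3B between 165 and 192 FPKM.

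H3F3AP4 was at 225, 241 and 227 FPKM in WT vehicle and at 194, 221 and 186 FPKM in WT pyridostatin. The treated libraries were all lower (log2 fold change -0.21, adjusted p = 0.0935 from limma), and in PARP3-/- cells it was 0.02. Neither was called.

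H3F3B was at 165, 185 and 170 FPKM in WT vehicle and at 168, 168 and 170 FPKM in WT pyridostatin. In the libraries labelled PARP3-/- it was at 178, 192 and 186 FPKM with vehicle and at 182, 185 and 179 FPKM with pyridostatin. Pyridostatin left it within the spread of the libraries in both genotypes, with an averaged log2 fold change of -0.03 (95% interval -0.10 to 0.04). Between genotypes the averaged log2 fold change was 0.10 (standard error 0.0325, adjusted p = 0.0460 from limma), with no overlap under pyridostatin and an overlap with vehicle through WT vehicle replicate 2. The averaged call was lost in 14 of 20 alternatives, among them the removal of any 1 library other than WT vehicle replicate 2 and PARP3-/- vehicle replicate 1 (adjusted p up to 0.231, limma). Without WT vehicle replicate 2 it was 0.13 (adjusted p = 0.00275 from limma). H3F3C, which encodes an H3 variant close to H3.3 and shares 3.35% of the windows of H3F3B, was higher in the same libraries by 0.12 on the log2 scale (adjusted p = 0.0446 from limma). Whether reads of H3F3B were assigned to H3F3C was not tested, so the 2 values are not independent.

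Of the linker histones, only H1F0 was called. H1F0, which accumulates in cells that stop dividing, fell with pyridostatin and was higher in libraries labelled PARP3-/- than in WT. H1FX was not called in any comparison.

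H1F0 was at 73.6, 71.3 and 69.9 FPKM in WT vehicle and at 63.2, 65.7 and 65.4 FPKM in WT pyridostatin. The levels in PARP3-/- cells were 76.6, 81.9 and 78.4 FPKM with vehicle and 68.5, 66.6 and 66.1 FPKM with pyridostatin. Each pyridostatin group lay wholly under its vehicle group, and each PARP3-/- group wholly over the WT group with the same treatment. The log2 fold change with pyridostatin was -0.23 in PARP3-/- cells (standard error 0.0360, adjusted p = 0.00452 from limma) and -0.14 in WT (adjusted p = 0.0546 from limma). Over both genotypes it was -0.19 (standard error 0.0254, adjusted p = 0.00103 from limma), a fall of 12.2%, called in all 20 alternatives. The 2 effects did not differ detectably (interaction -0.09, 95% interval -0.20 to 0.02). With vehicle the genotype log2 fold change was 0.14 (adjusted p = 0.0350 from limma), and over both treatments 0.09 (adjusted p = 0.0250 from limma). Both genotype calls were lost with a common median for all libraries. The call with vehicle was also lost with the replicate block, with only the libraries compared, and without WT vehicle replicate 3, PARP3-/- vehicle replicate 2 or 3, WT pyridostatin replicate 3 or PARP3-/- pyridostatin replicate 2 or 3. The averaged call was lost without WT vehicle replicate 3, PARP3-/- vehicle replicate 2, WT pyridostatin replicate 1 or PARP3-/- pyridostatin replicate 1 or 2 (adjusted p up to 0.161 and 0.159, limma).

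H1FX was at 77.4, 95.1 and 77.7 FPKM in WT vehicle and at 67.0, 79.9 and 73.4 FPKM in WT pyridostatin. In PARP3-/- cells it was at 66.2, 73.7 and 78.1 FPKM with vehicle and at 91.9, 80.2 and 81.3 FPKM with pyridostatin, the reverse order and without overlap. The log2 fold change with pyridostatin was -0.18 in WT (adjusted p = 0.338 from limma; -0.08 without WT vehicle replicate 2) and 0.21 in PARP3-/- cells (adjusted p = 0.254 from limma). The difference between these was 0.39 (95% interval 0.09 to 0.70, adjusted p = 0.999 from limma), and 0.30 without WT vehicle replicate 2.

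ATRX, a chromatin remodeller that works with DAXX in placing H3.3, was at 8.23, 4.41 and 8.36 FPKM in WT vehicle and at 7.98, 8.22 and 8.38 FPKM in WT pyridostatin. In PARP3-/- cells it was at 7.50, 7.22 and 7.40 FPKM with vehicle and at 7.25, 7.78 and 8.10 FPKM with pyridostatin. Apart from WT vehicle replicate 2 the libraries lay within 7.22 to 8.38 FPKM. ATRX was not called in any comparison, and with pyridostatin its averaged log2 fold change was 0.15 (95% interval -0.11 to 0.41). Without WT vehicle replicate 2 that was 0.02 (95% interval -0.05 to 0.09). Without it, the difference between genotypes turned from 0.11 to -0.15 with vehicle (adjusted p = 0.0494 from limma) and from 0.02 to -0.11 over both treatments (adjusted p = 0.0172 from limma), lower in the libraries labelled PARP3-/-. That fit called 14% of all names with vehicle and 27.2% over both treatments, against 9.41% and 19.1% with all libraries. The estimated 1300 to 2800 reads of ATRX per library gave a counting error of at most 2.81%.

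DAXX, the H3.3 chaperone that ATRX recruits, was listed at 0 in all 12 libraries. It lies in an unbroken run of 35 protein-coding genes that were all listed at 0, RPS18 of the small ribosomal subunit included, and 15 of its 20 nearest protein-coding neighbours were at 0, against 13.9% of all 18938 protein-coding genes matched. TUBB was at 0 as well. These names were looked up after the value of DAXX was seen. RPS18 and TUBB are used by every dividing cell, so only the listing is reported and no level of DAXX is given.

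Over the 8 tested genes the calls stood beside the share of all names as follows. With pyridostatin in WT, 1 was called lower (H2AFZ) and none higher, against 1.38% lower and 2.79% higher (4.17% in all) of the 11881 names. In PARP3-/- cells 2 were called lower (H2AFZ and H1F0), against 2.52% lower and 3.05% higher (5.56% in all). Over both genotypes 3 were called, all lower (H2AFX, H2AFZ and H1F0), against 6.24% lower and 7.71% higher (13.9% in all). The median log2 fold change of the 8 was then -0.06, and that of all names was 0.00093. Between genotypes with vehicle 1 was called higher (H1F0), against 6.4% higher and 3.01% lower (9.41% in all), and with pyridostatin none was called, against 10.9%. Over both treatments 3 were called, 2 higher (H3F3B and H1F0) and 1 lower (H2AFY), against 12.2% higher and 6.95% lower (19.1% in all). The interaction called 0% of all names in limma, with 521 at an unadjusted p under 0.05, 1 of the 8 (H1FX) among them. Of the names called, the share that was higher moved from 68.0% to 51.7% between genotypes with vehicle, from 64.8% to 53.1% with pyridostatin and from 63.7% to 45.7% over both treatments when all libraries were given a common median. For pyridostatin it moved from 66.9% to 45.6% in WT and from 55.3% to 39.9% over both genotypes. No fold change of the 8 reached a doubling or halving on any comparison, and the farthest from 0 was the interaction of H1FX.

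The libraries labelled PARP3-/- also differed from WT in epithelial markers. Over both treatments 4 of 5 were called, against 19.1% of all names, in a test that was not planned for these markers. KRT19 was higher by 0.85 on the log2 scale, CDH1 was at -0.47, EPCAM at -0.50 and KRT18 at -0.24 (adjusted p at most 0.0128, limma). The summed level of the 5 markers was 5714 to 6806 FPKM in WT and 5150 to 5882 FPKM in PARP3-/- libraries, which overlap. The summed level of 8 markers of blood, endothelial, fibroblast and muscle cells was 0.696 to 1.03 FPKM in WT and 1.25 to 1.64 FPKM in PARP3-/- libraries, almost all of it COL1A1, and PTPRC was at most 0.00776 FPKM. Their part in the genotype values was not tested.

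Proteins that place or remove these variants were read from fixed lists. For H2A.Z, 20 genes of the SRCAP, TIP60 and INO80 complexes and the chaperone ANP32E were tested, and with pyridostatin over both genotypes 2 rose and 3 fell (25.0% called against 13.9% of all names), with a median log2 fold change of -0.05. The acetyltransferase KAT5 rose by 0.20 and its partner EPC2 by 0.34, while ANP32E, which removes H2A.Z, fell by 0.32 on the log2 scale (adjusted p at most 0.0244, limma). KAT5 rose within both genotypes, by 0.21 in WT and 0.19 in PARP3-/- cells.

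For H3, 15 chaperones and partners were tested, and 6 fell and 1 rose with pyridostatin over both genotypes (46.7% called against 13.9% of all names). HIRA, which places H3.3 in active genes, was the one that rose. It was at 9.57, 9.89 and 9.97 FPKM in WT vehicle and at 12.4, 12.8 and 11.8 FPKM in WT pyridostatin, and at 9.41, 9.90 and 10.2 FPKM and then 11.7, 12.6 and 13.2 FPKM in PARP3-/- cells. No treated library overlapped a vehicle library, and the averaged log2 fold change was 0.31 (standard error 0.0357, adjusted p = 0.000329 from limma). The 6 that fell included MCM2 of the replicative helicase (-0.32), CHAF1B of the replication-coupled CAF-1 complex (-0.26) and the H3-H4 chaperone NASP (-0.21). UBN1, ASF1A and CABIN1, which work with HIRA, were at 0.04, -0.06 and 0.04 and were not called.

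Of the 19 tested enzymes and readers of H2AX phosphorylation or ubiquitination, 1 rose and 3 fell with pyridostatin over both genotypes (21.1% called against 13.9% of all names). Without WT vehicle replicate 2 these were 2 and 6 (42.1% against 19.2%). PPM1D, a phosphatase that removes the phosphate from H2AX and is a p53 target, rose from 5.21 ± 0.462 to 8.28 ± 0.635 FPKM in WT and from 5.39 ± 0.337 to 8.97 ± 0.628 FPKM in PARP3-/- cells (SD, n = 3 each). Its averaged log2 fold change was 0.61 (standard error 0.0521, adjusted p = 4.04e-05 from limma). BRCA1 fell by 0.20 on the log2 scale (adjusted p = 0.00477 from limma). ATM, ATR and PRKDC, the kinases of H2AX, were at 0.05, 0.13 and -0.01 and were not called. MDC1, which binds phosphorylated H2AX, was listed at 0. The phosphatase gene EYA2 was higher in the libraries labelled PARP3-/- by 0.42 (adjusted p = 0.000167 from limma).

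A further list held chaperones of H2A, H2B and H1 together with the chromatin proteins HMGB1, HMGB2, HMGN1 and HMGN2. Of its 15 tested genes, 7 fell with pyridostatin over both genotypes and none rose (46.7% called against 13.9% of all names, median -0.10). HMGB1 and HMGB2 are among those that fell, so this is not a share of chaperones alone. HMGB2 fell by 0.24, ANP32B by 0.18, HMGB1 by 0.14 and SSRP1 of the FACT complex by 0.13 on the log2 scale. Within PARP3-/- cells 6 were called and within WT none, against 5.56% and 4.17% of all names, a difference that the interaction test did not call for any gene. Between genotypes with pyridostatin 6 were lower in the libraries labelled PARP3-/- (40.0% against 10.9% of all names), among them nucleolin (NCL, -0.30) and ANP32B (-0.18).

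Among the other variants, 4 of 11 names were tested. CENPA, the centromeric H3, fell with pyridostatin over both genotypes by 0.22 on the log2 scale (adjusted p = 0.00414 from limma), from 29.3 ± 1.29 to 24.1 ± 1.51 FPKM in WT (SD, n = 3 each). It was the 1 name of these 4 called there (25% against 13.9% of all names), and without WT vehicle replicate 2 there were 2, both lower (50% against 19.2%). Of 6 clustered H1 genes only HIST1H1C passed the minimum, at a mean of 26.1 FPKM, and its log2 fold change was 0.05.

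Proliferation genes were counted in the comparison in which H2AFZ, H2AFX and H1F0 were called lower. With pyridostatin over both genotypes 8 of 14 fell and none rose (57.1% called against 13.9% of all names, median -0.15), including MCM6 (-0.36), MCM3 (-0.31), MCM5 (-0.28) and the mitotic kinase AURKA (-0.16), while PCNA (0.06), TYMS (0.04) and TOP2A (0.02) were not called. Without WT vehicle replicate 2, 9 of 14 fell and 1 rose, against 19.2% of all names called. On the same fit 8 of 15 H3 chaperones and partners and 6 of 20 H2A.Z genes were called. So were 9 of 15 genes of the list of H2A, H2B and H1 chaperones and HMG proteins. The part of cell cycle distribution in the variants' values was not tested, and fewer cells of a phase and less RNA per cell cannot be told apart in bulk libraries.

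The names whose log2 levels followed each gene most closely over the 12 libraries were ranked by Pearson's r, as a description, since the points share library, depth and treatment. For H2AFZ these included CHRNA5 (0.94) and GGH (0.94), and for H2AFX they were SSU72 (0.97), ALYREF (0.96) and SYNGR2 (0.96). For H3F3B they were LEPREL4 (0.95), TFF1 (0.95) and RNF135 (0.95). For ATRX they were LNPEP (0.99), TTC37 (0.98) and ZBTB38 (0.98), a pattern in which WT vehicle replicate 2 is the low point of ATRX.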

How the data were processed

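Stranded poly(A) libraries of A549 cells were sequenced as single-end 75-base reads in 12 libraries. The values are FPKM as deposited by the authors, 1 column per library and no pooling. The submitters' processing notes name bcl2fastq 2.16, STAR 2.5 and Cufflinks, with hg19 and mm9 as builds. Scaling to length and to mapped reads is therefore already in the values, and how reads shared by near-identical genes were assigned is not given in the sources used here. The count tests of the study were not used here.

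Genes were tested with limma 3.58.1 (R 4.3.3; eBayes with trend, 4 groups, no block) on log2(FPKM + 1) for the 11881 names with a mean of at least 1 FPKM, with Benjamini-Hochberg adjustment over all of them. The procedure was tested on simulated data. Depth was estimated from values worth 1 read (21500000 to 30900000 reads, approximate). The members and lists were chosen with earlier results of these data known. Named genes are all members, up to 4 called genes with the smallest p per list, the 3 most correlated names for the members with a ranked pattern, and genes marked in the text as looked up after their values were seen. Uncalled partners, kinases and markers were named from the lists for their roles. Transcripts and windows came from GENCODE release 29 and promoters from RefSeq (Python 3.11.15, Biopython 1.88). Alternatives were a pseudocount of 0.1, no minimum or 5 FPKM, quantile normalization, a common median, eBayes without trend, array weights, a replicate block, only the libraries compared, longer motif loops and each library left out. Same-numbered libraries did not deviate together in every pair, so the numbers were not taken as pairs. Some genes that these rules name are not reported here.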

Additional observations from a re-analysis of the deposited data

How the results depend on the processing

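Over the 8 tested genes and 7 comparisons, 1028 values kept direction and side of the threshold, 56 lost a call, 21 gained one and 47 changed sign. The values that changed sign were not called in the reported fit, and only ATRX between genotypes passed in an alternative, without WT vehicle replicate 2 (-0.15 with vehicle, -0.11 over both treatments). With quantile normalization the values that changed sign became -0.0214 for ATRX and 0.0101 for H2AFX (genotype over both treatments), 0.0081 for H2AFZ (genotype with pyridostatin), 0.0188 for H2AFY and 0.0102 for H3F3B (pyridostatin in WT), 0.0169 for H3F3B (pyridostatin in PARP3-/-), and 0.0073 for H2AFY and 0.0136 for H3F3B (pyridostatin over both genotypes). With the common median they became -0.0182 for ATRX, -0.0300 for H1FX and -0.0250 for H2AFV (genotype over both treatments) and -0.0079 for H1FX (pyridostatin over both genotypes). With array weights they became -0.103 for ATRX, -0.0156 for H2AFV and 0.0626 for H2AFX (genotype over both treatments), -0.150 for ATRX (genotype with vehicle), -0.0218 for ATRX and 0.0078 for H2AFY (pyridostatin in WT), and 0.0945 for ATRX and -0.0308 for H3F3B (interaction). With 1 library left out, values of the genotype comparison over both treatments ran from -0.115 to 0.0828 for ATRX, -0.0281 to 0.0521 for H1FX, -0.0068 to 0.0233 for H2AFV and -0.0499 to 0.0439 for H2AFX, and with vehicle from -0.150 to 0.245 for ATRX. Those of the interaction ran from -0.324 to 0.0711 for ATRX, -0.0190 to 0.0908 for H2AFZ and -0.0354 to 0.0487 for H3F3B. Those of pyridostatin ran from -0.0154 to 0.380 for ATRX, -0.0351 to 0.0034 for H2AFY and -0.0739 to 0.0102 for H3F3B in WT, from -0.0544 to 0.00063 for H3F3B in PARP3-/- cells and from -0.0136 to 0.0673 for H1FX over both genotypes. Counts of the 8 genes called changed as follows. Between genotypes over both treatments, 3 became 1 with the common median and 1 to 4 with 1 library left out. With pyridostatin, 0 became 1 without the minimum, 1 with quantile normalization, 3 with array weights, 2 with only the libraries compared and 0 to 2 with 1 library left out. With vehicle, 1 became 2 with quantile normalization, 0 with the common median, 2 with array weights, 0 with the replicate block, 0 with only the libraries compared and 0 to 3 with 1 library left out. For pyridostatin in PARP3-/- cells, 2 became 1 without the minimum, 1 with quantile normalization and 1 to 2 with 1 library left out. For pyridostatin in WT, 1 became 0 without the minimum, 2 with the common median, 4 with array weights, 2 with the replicate block, 0 with only the libraries compared and 0 to 2 with 1 library left out. The causes were not tested. Pyridostatin over both genotypes called 2 to 4. The replicate block changed no other count. Correlations of same-numbered deviations ran from -0.12 to 0.22, with means from -0.05 (pyridostatin in WT) to 0.12 (pyridostatin in PARP3-/- cells). They cannot show whether same-numbered samples were handled together. Longer motif loops (1 to 12 bases) left 3 of 7 genes with a match, against 40.5% of all genes. Of 1008 counts over the lists, 800 stayed within 1.5 times and 208 moved.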
